A study of Capra hircus with 8 samples.

Results

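Among the numbered long non-coding RNAs (lncRNAs) of goat cleavage embryos, 70 of 4506 were detected in both 8-cell libraries made from nuclear transfer embryos and listed at 0 in every other library. They were chosen by that pattern alone: an ID starting with lnc_, a value above 0 in both SCNT 8-cell libraries, and exactly 0 in the other 6. The pattern is therefore a description and was not tested. The 70 are 1.55% of the numbered lncRNAs, and lnc_3712, the transcript that the series is titled after, ranked 30th among them by mean level. If SCNT 8-cell replicate 1 is left out the same rule gives 173 lncRNAs, and without replicate 2 it gives 122, since a single library then has to be above 0.

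The study measured polyadenylated RNA of goat (Capra hircus) embryos with Smart-seq2, which amplifies full-length cDNA from very small samples, after lysing the embryos directly. There were 4 groups of 2 libraries: 4-cell and 8-cell embryos from in vitro fertilisation (IVF), and 4-cell and 8-cell embryos from somatic cell nuclear transfer (SCNT). In SCNT the nucleus of a body cell replaces that of the egg. The labels give no strain, donor cell type or number of embryos per library, and do not say whether replicates are separate pools, so any spread between replicates may be technical. In such bulk samples, fewer cells with a transcript and less of it per cell cannot be told apart. Knockdown of lnc_3712, which the series also describes, was not analysed here.

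Long non-coding RNAs are transcripts that are not translated into a known protein. Some stay in the nucleus and guide or block chromatin enzymes, and many are made in a single cell type or stage. In early embryos, RNA stored in the egg is degraded while the embryo starts its own transcription, and in cloned embryos the incoming somatic chromatin has to be reset during the same cleavages. Numbered lncRNAs carry a serial number in place of a gene name. The files pair none of the 70 with a gene name, a sequence or a position in the genome, and none of the 70 names occurs in the messenger RNA table.

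Levels are FPKM, fragments scaled to feature length and to library size, so they can be compared between lncRNAs of unequal length. The steps between FPKM values also gave the total reads of each library, and for each member the smallest whole number of reads and the feature length that produce its values. These totals lay between 26853876 and 30345379 reads, with 28397783 and 28519065 in SCNT 8-cell replicates 1 and 2. The number of numbered lncRNAs above 0 was 2064 and 2432 in those 2 libraries, 2614 and 2320 in the IVF 8-cell libraries, and 2092 to 2473 in the 4-cell libraries. In the 8-cell messenger RNA table, the 10 listed of 12 oocyte and embryo markers had summed levels of 3335 and 4779 FPKM for SCNT replicates 1 and 2, against 2141 and 2064 FPKM for IVF. Fibroblast markers summed to 88.4 and 94.5 FPKM for SCNT, against 131 and 119 FPKM for IVF, with 8 and 8 against 5 and 5 of 12 at 1 FPKM or more. The order of these sums rests on DCN, which encodes the matrix proteoglycan decorin, at 33.9 and 39.5 FPKM for SCNT and 94.3 and 85.5 FPKM for IVF. Without it the other 11 summed to 54.5 and 55.0 FPKM for SCNT, against 37.2 and 33.2 FPKM for IVF. Among them TIMP1, an inhibitor of matrix proteases, had 11.2 and 12.9 FPKM for SCNT and 0.156 and 0.637 FPKM for IVF. COL1A1, COL1A2, COL3A1 and TAGLN were also higher in both SCNT libraries than in either IVF library. FN1 was lower in both, at 9.44 and 11.4 FPKM for SCNT and 12.2 and 13.5 FPKM for IVF. In the rest of the 11 the groups overlapped. DCN and TIMP1 were picked out after their values were seen. The 8 listed of 10 cumulus and granulosa markers summed to 21.2 and 35.7 FPKM for SCNT, against 42.0 and 51.2 FPKM for IVF, with the receptor gene FSHR and the hormone gene AMH at 0 in all 4 libraries. None of these sums is adjusted for the library median of log2(FPKM + 1) in messenger RNA, which was 0.49 higher for SCNT than for IVF. The part of other cell types in the members was not tested.

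Mean levels of the members ran from 0.0734 to 87.5 FPKM. A mean of 5 FPKM or more was reached by 3 of them, 18 lay from 1 to under 5 FPKM, 16 from 0.5 to under 1 FPKM, and 33 were under 0.5 FPKM. The median of the means was 0.576 FPKM, with medians of 0.399 and 0.628 FPKM in SCNT 8-cell replicates 1 and 2. The set drawn without SCNT 8-cell replicate 2 had a median of 0.343 FPKM. Over the 1476 numbered lncRNAs that were above 0 in both SCNT 8-cell libraries and also elsewhere, the median was 0.905 FPKM.

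The highest member was lnc_751. It stood at 106 FPKM in SCNT 8-cell replicate 1 and 68.7 FPKM in replicate 2 (mean 87.5 ± 26.6, SD, n = 2). These values rest on 2135 and 1385 reads over 707 bases. In the other 6 libraries, 0 reads allow at most 0.158 FPKM (3 reads in each library, counting error only), so the lower SCNT value was at least 435-fold higher. This lncRNA alone held 55.7% of the summed mean level of the 70.

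Next came lnc_1619 with 14.0 and 8.01 FPKM in replicates 1 and 2, from 755 and 434 reads over 1899 bases. Its lower value was at least 136-fold above what a 0 allows elsewhere. The third, lnc_1277, had 10.6 and 5.78 FPKM from 108 and 59 reads over 358 bases, at least 18.5-fold above that limit. All 3 of these were higher in replicate 1 than in replicate 2. Together they stood apart from the rest, since the fourth member had a mean of 3.26 FPKM.

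The fourth member was lnc_2523, at 1.15 and 5.37 FPKM in replicates 1 and 2. The fifth, lnc_1626, had 2.19 and 3.74 FPKM from 123 and 211 reads. The sixth, lnc_3577, had 3.48 and 2.15 FPKM from 187 and 116 reads. With lnc_751 and lnc_1619, these last 2 were the only members with 100 reads or more in both libraries. The next 6 in rank were lnc_1704 (mean 1.90 FPKM), lnc_189 (1.76), lnc_1561 (1.74), lnc_4450 (1.54), lnc_4333 (1.42) and lnc_2894 (1.40). Of these 6, lnc_1561 alone was higher in replicate 1, at 1.97 against 1.505 FPKM.

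**Figure D1:**
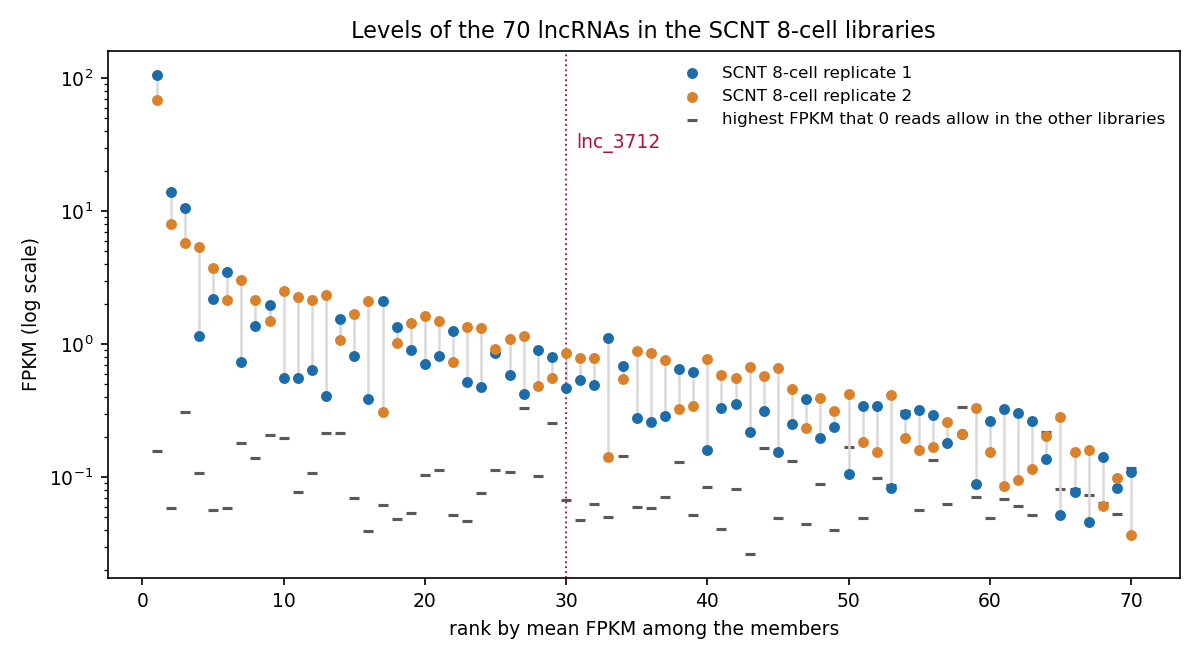
FPKM (log axis) of the 70 lncRNAs in SCNT 8-cell replicate 1 (blue) and replicate 2 (orange), ordered by rank of the mean; a grey line joins the 2 values and a dash marks the highest FPKM that 0 reads allow in the other libraries. Levels fall from 106 FPKM to under 0.1 FPKM, lnc_3712 (dotted line) is at rank 30, and in the lower ranks the values come down to the dashes.

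The title lncRNA, lnc_3712, sat in the middle of the set. It had 0.465 FPKM in SCNT 8-cell replicate 1 and 0.863 FPKM in replicate 2 (mean 0.664 ± 0.282, SD, n = 2), with 29 members above it and 40 below. Its values correspond to 22 and 41 reads over a feature of 1665 bases. In the other 6 libraries its 0 allows 0.0594 to 0.0671 FPKM, and its lower SCNT value was at least 6.93-fold above the highest of these.

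The members around lnc_3712 had nearly the same mean. Just above were lnc_1036 (0.910 and 0.486 FPKM in replicates 1 and 2) and lnc_3942 (0.800 and 0.558 FPKM). Just below were lnc_428 (0.537 and 0.788 FPKM) and lnc_490 (0.497 and 0.791 FPKM). The gaps between these means are smaller than the SD of lnc_3712 between its own 2 libraries, so its place among these neighbours is not resolved. Its rank was 33 in replicate 1 alone and 28 in replicate 2 alone. By length, longest first, it was 29th, and by summed reads 26th. Among all 1546 numbered lncRNAs above 0 in both SCNT 8-cell libraries, its mean ranked 893rd. In the larger sets drawn without SCNT 8-cell replicate 1 or replicate 2, it ranked 44th and 49th.

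Many members rested on few reads. In 41 of 70, both libraries held at least 10 reads, and in 10 of 70 at least 1 of the 2 libraries held 3 reads or fewer. For those 10, the lower SCNT value did not exceed the highest level that a 0 allows elsewhere. The higher SCNT value did exceed it in 6 of them. In the other 4, with 3 reads or fewer in both libraries, it did not, and they cannot be told apart from the other groups at this depth. Since a 0 was read as allowing 3 reads, these counts follow from the reads. They test no difference between groups, for the other members either. The 10 begin at rank 50, well below lnc_3712. At the other end, 12 members had a lower SCNT value at least 10-fold above the highest level that a 0 allows.

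The lowest 4 means belonged to lnc_2040 (2 and 7 reads in replicates 1 and 2), lnc_352 (7 and 3 reads), lnc_2696 (5 and 6 reads) and lnc_1700 (3 reads and 1 read). The last of these, at 0.110 and 0.0366 FPKM, is the member closest to the edge of the rule. Just outside the rule were 71 numbered lncRNAs that were above 0 in both SCNT 8-cell libraries and in exactly 1 other library. That other library was IVF 8-cell replicate 1 in 19 cases and replicate 2 in 4, an SCNT 4-cell library in 9 and 15, and an IVF 4-cell library in 8 and 16. The highest 4 of the 71 by SCNT mean were lnc_4222 (mean 5.24 FPKM, with 6.60 FPKM in SCNT 4-cell replicate 1), lnc_2379 (2.75 and 4.35 FPKM, in IVF 4-cell replicate 2), lnc_3723 (2.60 and 0.291 FPKM, in IVF 8-cell replicate 1) and lnc_1429 (2.34 and 1.14 FPKM, in SCNT 4-cell replicate 1). In lnc_4222 and lnc_2379 the value in the excluding library exceeded the SCNT 8-cell mean. In 14 of the 71 it was under 0.1 FPKM.

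Many members differed in level between the 2 SCNT 8-cell libraries, as did other lncRNAs of the pair. Replicate 2 was higher in 42 of 70 members and replicate 1 in 28. Over all 1546 numbered lncRNAs above 0 in both libraries, replicate 2 was higher in 61.6%. The higher value was at least 2 times the lower in 33 members, 23 of them toward replicate 2 and 10 toward replicate 1, and in 617 of the 1476 other lncRNAs of the pair. The median ratio of the higher to the lower value was 1.93, against 1.79 over the 1476 other lncRNAs of the pair. Across the 70 members, which share the same libraries and are not replicates, the log2 levels correlated at r = 0.73 and the ranks at rho = 0.65.

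The widest gaps toward replicate 2 were in lnc_129, with 0.407 and 2.36 FPKM in replicates 1 and 2 (a ratio of 5.81), lnc_2520 (5.48, from 2 and 11 reads) and lnc_2670 (5.46, from 31 and 170 reads). Toward replicate 1 they were in lnc_832, with 1.12 and 0.143 FPKM (70 and 9 reads), lnc_1983, with 2.10 and 0.312 FPKM (107 and 16 reads), and lnc_3843, with 0.326 and 0.0865 FPKM (15 and 4 reads). Members of similar mean could thus be carried mostly by either library. In lnc_3712, replicate 2 was 1.86 times replicate 1, beside a median ratio of 1.57 over the members.

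**Figure D2:**
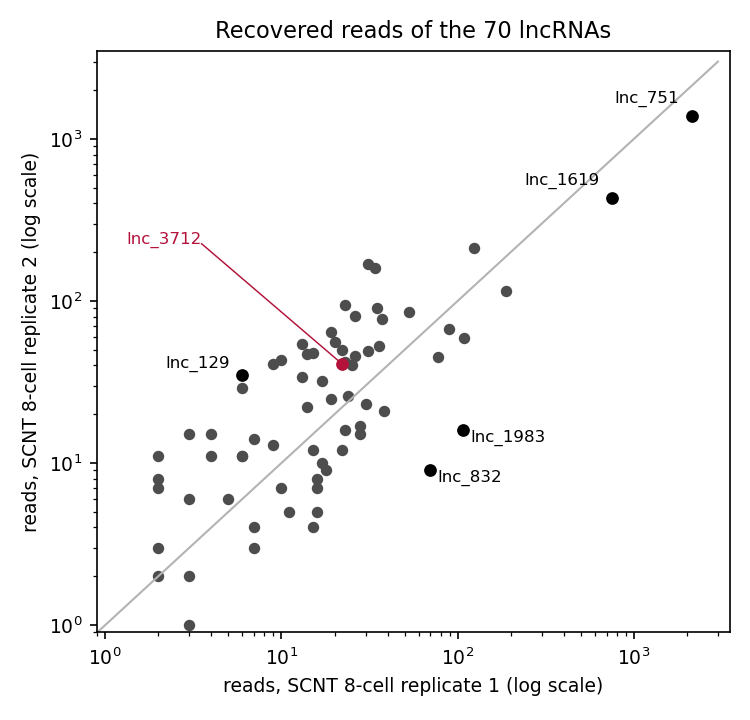
Smallest whole number of reads of each of the 70 lncRNAs in SCNT 8-cell replicate 1 (x axis) and replicate 2 (y axis), both on log scales; the line marks equal reads. Points lie on both sides of the line, lnc_751 and lnc_1619 sit far above the rest, lnc_129 leans to replicate 2, lnc_832 and lnc_1983 lean to replicate 1, and lnc_3712 (red) is at 22 and 41 reads.

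Feature length was not used by the rule. The members ranged from 331 to 4205 bases, with a median of 1457 and quartiles of 846 and 1979 bases. The 1476 other numbered lncRNAs of the SCNT 8-cell pair had a median of 2214.5 bases. The corresponding sets found in a single other group were also short, with medians of 1239 bases for the 98 lncRNAs only in the IVF 8-cell pair, 1019 for the 31 only in the SCNT 4-cell pair and 1243 for the 35 only in the IVF 4-cell pair. Shorter features collect fewer reads at a given FPKM. Median reads were 17 and 22.5 in replicates 1 and 2 for the members and 44 and 61.5 for the 1476 others. Lengths and reads are the least that fit the values above 0, which the members have in a single pair of libraries and the 1476 others in more. A common divisor can therefore go unseen more often in the members, which would understate their lengths and reads. The other single-group sets share this limit. How far it enters these gaps was not tested. Only 5 members were under 500 bases, among them lnc_1277, and 17 were 2000 bases or longer.

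The same rule was applied to each other pair of libraries. The 98 numbered lncRNAs only in IVF 8-cell embryos make up 2.17% of all, and their median level was 0.587 FPKM. At the 4-cell stage the shares were 0.688% for SCNT and 0.777% for IVF, with medians of 0.416 and 0.462 FPKM. Among annotated lncRNAs the order at 8 cells was the opposite, 1.86% only in the SCNT pair and 0.731% only in the IVF pair, while each 4-cell pair had 0.266%. None of these differences was tested. Over all 28 pairs of libraries, the number of numbered lncRNAs found in exactly that pair had a median of 30.5 and ranged from 12 to 98, and the SCNT 8-cell pair was the third highest. The second highest, with 74, was IVF 8-cell replicate 1 with IVF 4-cell replicate 2, a pair from different stages. A count of this size is thus not limited to pairs within a group.

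**Figure D3:**
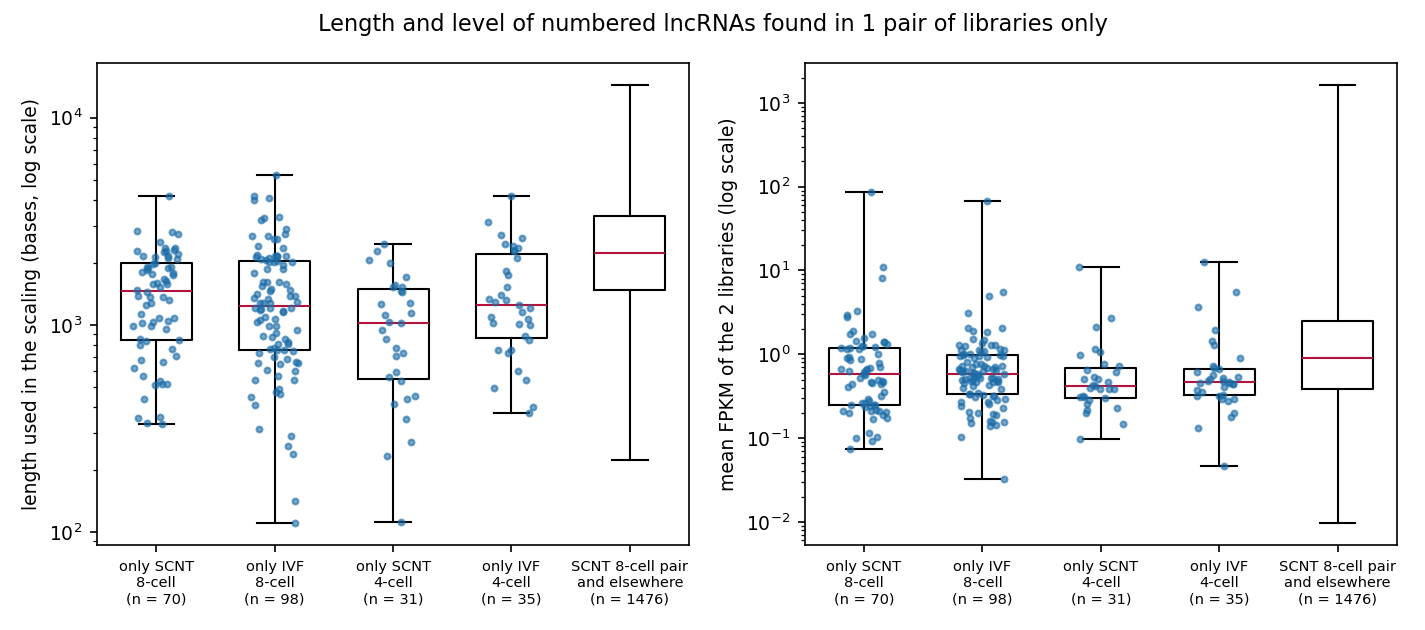
Feature length in bases (left) and mean FPKM of the 2 libraries (right), both on log axes, for numbered lncRNAs found only in the pair of libraries of each group, and for the 1476 found in the SCNT 8-cell pair and elsewhere; boxes show quartiles, red lines medians, whiskers the full range, and blue points single lncRNAs of the first 4 sets. The median length of the members, 1457 bases, lies above those of the other single-group sets and under the 2214.5 bases of the last set. Lengths are the least that fit the values, which may understate those of the single-group sets more often.

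The zeros at the 4-cell stage narrowed the set. Looking at the 8-cell libraries alone, 196 numbered lncRNAs (4.35%) were above 0 in both SCNT and 0 in both IVF libraries, beside 6.26% with the reverse pattern, and the 70 members are those of them that were also 0 in all 4-cell libraries. The other 126 were above 0 in at least 1 4-cell library, and 20 of these in all of them. Of the annotated lncRNAs, 6.11% showed the same 8-cell pattern and 2.66% the reverse. Of the messenger RNA entries, 3.89% showed it and 0.982% the reverse.

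Serial numbers give one further property that the rule did not use. In 39 of the 70 members (55.7%), an lncRNA with the next lower or next higher number was above 0 in both IVF 8-cell libraries. The same held for 61.8% of all numbered lncRNAs. In the larger sets drawn without SCNT 8-cell replicate 1 or replicate 2, the counts were 93 of 173 and 69 of 122. Without IVF 8-cell replicate 1 or replicate 2 they were 64 of 89 and 60 of 74, and there the neighbour had to be above 0 in the remaining IVF 8-cell library only. The share of all numbered lncRNAs under that looser condition was not computed, so these 2 counts cannot be set against the 61.8%. A neighbour above 0 in both IVF 8-cell libraries and at 0 in both SCNT 8-cell libraries stood beside 9 of the 70 members and beside 541 of all 4506 numbered lncRNAs. The shares are close to each other, so such a neighbour is not particular to the members. Whether consecutive numbers mean adjacent positions in the genome is not given in the sources used here.

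The neighbour of this kind with the highest level was lnc_750, beside lnc_751. It stood at 37.4 and 45.5 FPKM in the IVF 4-cell libraries, 44.4 and 39.7 FPKM in the SCNT 4-cell libraries and 67.8 and 106 FPKM in the IVF 8-cell libraries. In both SCNT 8-cell libraries, where lnc_751 was at 106 and 68.7 FPKM, it was at 0. Both are carried by many reads, 2595 to 8328 for lnc_750 in its 6 libraries, and its 0 in the SCNT 8-cell libraries allows at most 0.0408 FPKM. No library held reads of both. Their lengths are 2587 bases for lnc_750 and 707 bases for lnc_751. The next number, lnc_752, was present throughout, at 9.84 and 1.68 FPKM in the SCNT 8-cell libraries and 17.6 to 32.2 FPKM in the other 6. How many of all numbered lncRNAs were lowest in the SCNT 8-cell pair was not counted.

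A similar arrangement was seen at the third-ranked member. Its neighbour lnc_1276 stood at 2.96 and 3.82 FPKM in the IVF 8-cell libraries, 1.25 and 1.85 FPKM in the SCNT 4-cell libraries and 3.55 FPKM in IVF 4-cell replicate 2. It was at 0 in both SCNT 8-cell libraries, where lnc_1277 was present, and in IVF 4-cell replicate 1. In that last library lnc_1278 was at 10.02 FPKM, and its only other value was 0.632 FPKM in SCNT 8-cell replicate 2. The feature lengths were 4618, 358 and 888 bases for lnc_1276, lnc_1277 and lnc_1278. Members with a neighbour at 0 in both SCNT 8-cell libraries and present in at least 5 of the other 6 were these 2, lnc_751 and lnc_1277, or 2.86% of the 70 against 2.89% of all numbered lncRNAs. That condition was chosen after the values were seen.

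The lncRNAs on both sides of lnc_3712 were found in fertilised embryos. The lower neighbour, lnc_3711, was at 0.738 and 1.09 FPKM in the IVF 8-cell libraries, 0.473 FPKM in IVF 4-cell replicate 1 and 0 in the other 5 libraries, both SCNT 8-cell libraries among them. It rests on 5 to 13 reads over 394 bases. The upper neighbour, lnc_3713, was present in all 8 libraries. It had 0.981 and 0.955 FPKM in the SCNT 8-cell libraries and 1.69 to 6.22 FPKM in the other 6, an order whose share over all numbered lncRNAs was not counted. Its length of 1652 bases is close to the 1665 bases of lnc_3712.

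**Figure D4:**
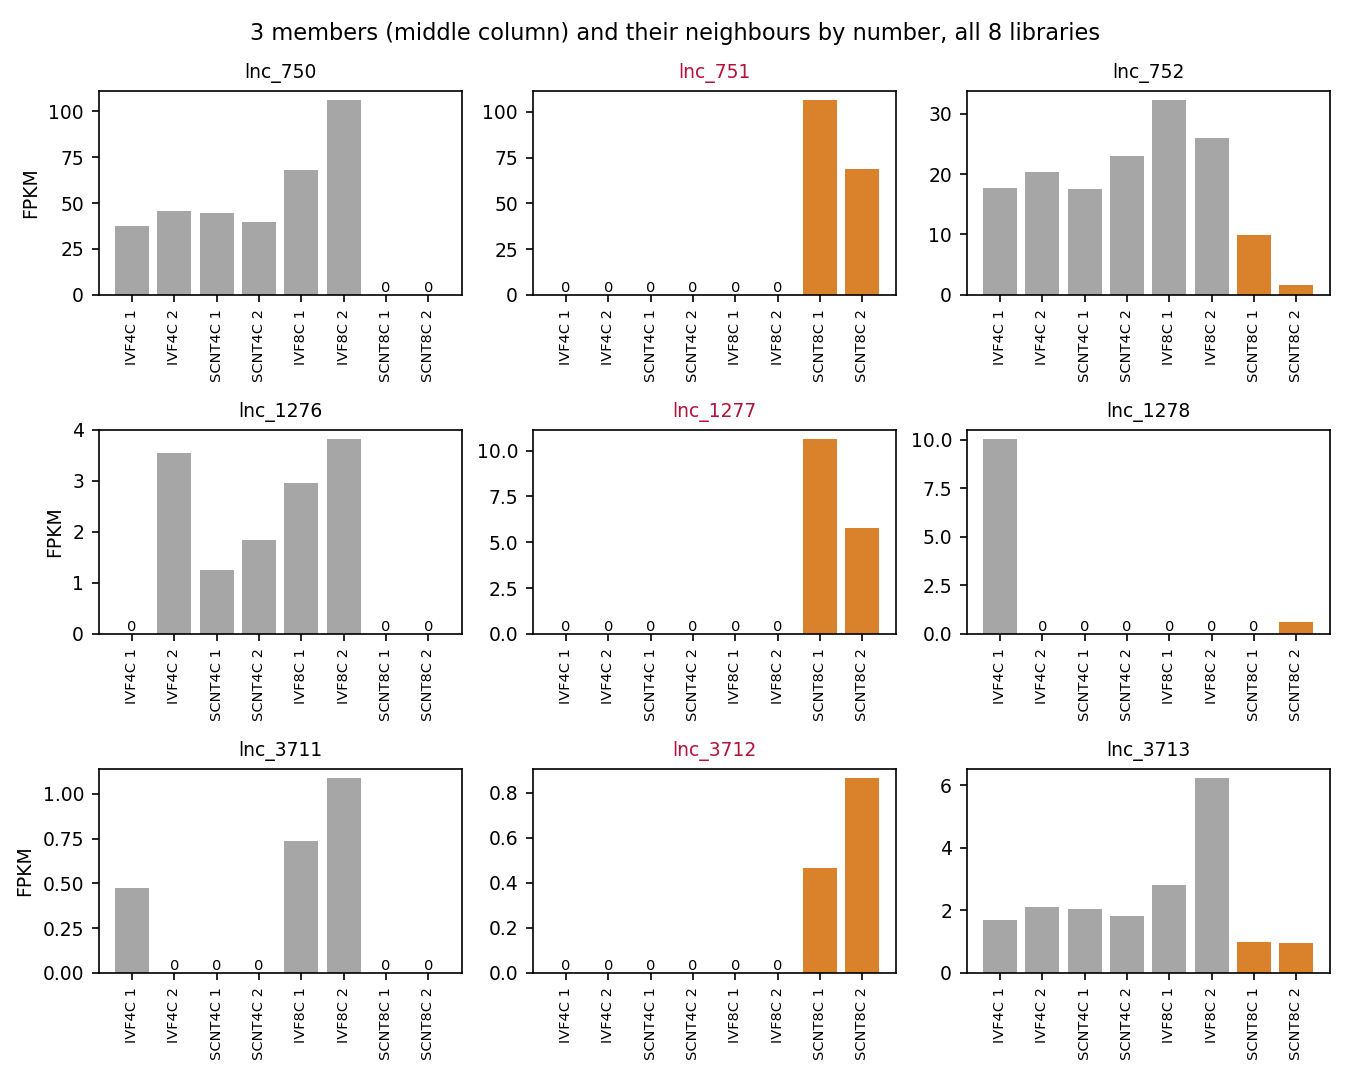
FPKM in each of the 8 libraries (bars from 0, with a separate scale in each panel) for lnc_751, lnc_1277 and lnc_3712 in the middle column and their neighbours by number on either side; SCNT 8-cell libraries are orange, the other 6 grey, and a printed 0 marks a value of 0. Where lnc_751 has its 106 and 68.7 FPKM, lnc_750 is at 0, and the reverse holds in the other 6 libraries.

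Among other highly ranked members, lnc_3577, lnc_1626 and lnc_1704 had no neighbour above 0 in both IVF 8-cell libraries and at 0 in both SCNT 8-cell libraries. The 9 members with a neighbour of that kind also include lnc_129, at rank 13. Beside lnc_3577, lnc_3578 was above 0 in all 8 libraries, at 2.44 and 2.04 FPKM in the SCNT 8-cell pair and 2.40 to 5.52 FPKM elsewhere. The number after that, lnc_3579, is itself a member, at 0.479 and 1.33 FPKM in replicates 1 and 2. This flanking pair was picked out after its values were seen. Beside lnc_1626, lnc_1627 had 0.776 and 0.458 FPKM in the IVF 8-cell libraries and 0 and 0.191 FPKM in the SCNT 8-cell libraries. Beside lnc_1704, lnc_1705 had 0.252 and 0.201 FPKM in the IVF and 0.263 and 0.349 FPKM in the SCNT 8-cell libraries. The only members with consecutive numbers were lnc_1703, at 0.0773 and 0.154 FPKM, and lnc_1704, at 0.740 and 3.06 FPKM. In both, replicate 2 was the higher library. These 2 are 2.86% of the members, and 3.06% of all numbered lncRNAs had a member as a neighbour.

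The title of the series ties lnc_3712 to KDM5B, which encodes a demethylase of lysine 4 on histone H3, a mark of active promoters. Messenger RNA values exist here for the 8-cell stage. In the SCNT libraries, KDM5B had 3.91 FPKM (replicate 1) and 1.51 FPKM (replicate 2). The IVF libraries had 0.498 and 0.846 FPKM, so the groups did not overlap, with a difference of 1.08 in mean log2(FPKM + 1). How many of all messenger RNA entries separated in the same way was not counted. With 2 libraries against 2, the exact two-sided permutation test gave p = 0.333, the smallest value this design allows. The separation depended on the scaling. The library median of log2(FPKM + 1) was 0.49 higher for SCNT than for IVF, and relative to it KDM5B stood at -0.81 and -2.04 in SCNT replicates 1 and 2 and at -2.15 and -1.87 in IVF. The groups then overlapped, with a difference of 0.59 and an exact permutation p = 0.667. With each library rescaled to a sum of 1000000 instead, the difference was 1.44 (exact permutation p = 0.333). Without SCNT 8-cell replicate 1 the difference, neither centred nor rescaled, was 0.60. Within the SCNT pair, the library with the higher KDM5B value, replicate 1, had the lower lnc_3712 value, and 2 libraries do not allow a correlation.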

How the data were processed

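Goat 4- and 8-cell embryos, 2 IVF and 2 SCNT libraries at each stage, were grouped by their labels. The authors deposited FPKM values. Per the submitters' processing notes, fastp, HISAT2 2.2.1 and HTSeq were used, without stated roles; the build, annotation and assembly of numbered lncRNAs were not stated in the sources used here. The 4- and 8-cell table holds 6011 lncRNAs, 4506 numbered and 1505 annotated. For all 4506, a second table repeats the same 8-cell values.

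Library totals were computed from whole-read steps: ratios between libraries from lncRNAs with equal reads, and their size as the largest total that gives whole feature lengths (within 0.02 base for 84.9% of 1277 lncRNAs). The smallest length giving whole reads, within 0.001 read plus rounding, was found for all 3691 numbered lncRNAs above 0 in at least 2 libraries. True reads and length can both be a common multiple of these, so printed reads and lengths are the least that fit, and the level that a 0 allows is then overstated. PCR copies are not separate molecules, so limits cover counting error only. A 0 was read as allowing 3 reads.

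Named members were lnc_3712 and its 4 neighbours in rank, the 12 highest, the 4 lowest, the 3 widest replicate ratios each way, and those with consecutive numbers or, for the 5 highest, a neighbour in both IVF 8-cell libraries. Members and lists were chosen with earlier results of these data known. KDM5B was compared on log2(FPKM + 1) by an exact permutation test. Python 3.11.15, scipy 1.17.1 and pandas 2.3.3 were used, and the steps were tested on simulated data. Alternatives changed the zero and presence limits, the scaling, the ranking and the libraries.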

Additional observations from a re-analysis of the deposited data

How the results depend on the processing

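The count of 70 became 25 when 0.5 FPKM was required in both SCNT 8-cell libraries, and 196 with the 8-cell libraries alone, in the 4- and 8-cell table as in the 8-cell table. Leaving out single libraries gave 74 to 173, and each of these sets held all 70 members, as the rule makes certain. Allowing up to 0.01, 0.05 or 0.1 FPKM elsewhere gave 70, 78 and 96. The rank of lnc_3712 was 26 by reads and 31 to 49 without single libraries, where the sets are larger. The median level was 0.765 FPKM after rescaling to equal sums and 0.343 to 0.588 FPKM without single libraries. Members with a neighbour in the IVF 8-cell libraries numbered 25 at 0.5 FPKM or more and 61 with a single IVF 8-cell library required. Without single libraries they numbered 43 to 93, in sets of 74 to 173, and without an IVF 8-cell library the neighbour condition is also looser. The share of all numbered lncRNAs under the changed neighbour conditions was not computed. Replicate 2 was higher in 41 and 40 of 70 after rescaling and centring, and in 36 of the 60 members at 0.1 FPKM or more in both libraries.

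The KDM5B difference stayed positive under all 9 alternatives, from 0.59 after median centring, where the groups overlapped (exact permutation p = 0.667), to 1.76 with a pseudocount of 0.1 FPKM, and lay between 0.60 and 1.56 without single libraries. With the replicate number as a block it was 1.08 (exact sign-flip p = 0.5, the smallest possible with 2 pairs). The numbers were not shown to pair libraries: over the 793 numbered lncRNAs above 0 in all 8 libraries, replicate differences of the IVF and SCNT 8-cell pairs correlated at 0.0048. Depth limits the 10 members with 3 reads or fewer in a library.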

Other observations

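The summed level of the set rests largely on lnc_751. Summed over the 70, the members held 171 FPKM in SCNT 8-cell replicate 1 and 144 FPKM in replicate 2, or 2.14% and 1.57% of the summed level of all numbered lncRNAs in those libraries. Without lnc_751 the shares were 0.808% and 0.820%. The 98 lncRNAs found only in the IVF 8-cell pair held 0.714% and 0.899% of their libraries, and without their own highest, lnc_1448 (mean 67.7 FPKM), 0.409% and 0.445%. In both sets 1 lncRNA held a large part of the summed level, and lnc_1448 was picked out after its values were seen.

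Many numbered lncRNAs were detected in a single library. In SCNT 8-cell replicate 1, 52 numbered lncRNAs were above 0 in that library and in no other, and in replicate 2 there were 103. In the IVF 8-cell libraries the counts were 160 and 97.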
